A study of Mus musculus with 16 samples.

Results

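The genes described here are 10 members of the NF-κB system of transcription factors: the subunit genes Nfkb1, Nfkb2, Rel and Relb, the genes Nfkbia, Nfkbid, Nfkbiz and Bcl3 of the IκB family, and Tnfaip3 and Tnip1, whose products restrain the signal that activates NF-κB. They were chosen by name, with earlier results of these data known. They make up 10 of the 31053 genes in the count matrices of lung and MLN cells. In the matrix of medLN and MLN cells they make up 10 of the 32285 genes. All 10 were measured in every sample and passed the filter on low counts in every comparison.

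In resting T cells the NF-κB dimers are held in the cytoplasm by IκB proteins. A signal from the T cell receptor, from costimulation or from receptors of the TNF and IL-1 families leads to the breakdown of the IκB, and the freed dimers enter the nucleus. Several of the genes that they switch on encode their own inhibitors, so transcripts of Nfkbia and Tnfaip3 are widely used as a sign of recent NF-κB activity, while a slower noncanonical pathway works through the products of Nfkb2 and Relb.

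The cells came from 4get mice, in which eGFP reports transcription of the Il4 locus, on the C57BL/6 background. All mice were female and all had been given 500 larvae of Nippostrongylus brasiliensis (Nb) under the skin 10 days before, so every value is from an infected animal. In the first experiment, CD4+IL-4eGFP+ cells were sorted from the perfused lung, which still holds some cells of the blood vessels, and from the MLN of 2 mice aged 13 weeks. The 4 libraries are named lung 1, lung 2, MLN 1 and MLN 2 after organ and mouse. In the second experiment, cells of the lung-draining medLN and of the MLN of 2 further mice, aged 10 weeks, were marked with hashtag antibodies, and CD4+ cells with and without eGFP were put in separate libraries (IL-4eGFP+ and IL-4eGFP-), which gives 8 samples of organ, mouse and gate. Lungs were digested with enzymes and lymph nodes were mashed, so organ and way of preparation cannot be told apart in the first experiment. Gate and library cannot be told apart in the second.

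After filtering, the first experiment held 1082 and 416 lung cells and 2462 and 754 MLN cells with a median of 4971 to 6910 UMIs, and the second 1992 to 2249 cells per sample with a median of 3166 to 3667 UMIs. Levels are UMI counts summed over the cells of a sample and scaled to its total outside the T cell receptor genes (CPM). The lowest count behind the level of a whole sample was 113 UMIs, for Tnfaip3 in MLN 2, and the highest was 18205 UMIs, for Nfkbia in lung 1. Levels given below for kinds of cell within a sample can rest on far fewer UMIs. Cd3e and Cd4 were present in all 12 samples, and Il4 was at most 0.399 CPM in the IL-4eGFP- samples. Markers of B cells summed to 93.7 and 127 CPM in lung and to 239 and 264 CPM in MLN, nearly all of it Ighm, while Ms4a1 was at 0 in these 4 libraries. Myeloid markers summed to 4.83 and 6.09 CPM in lung and to 33.4 and 67.4 CPM in MLN. Markers of lung epithelium and endothelium summed to 39.0 and 42.7 CPM in lung and to 76.2 and 75.9 CPM in MLN. Most of this was Pecam1, at 35.6 and 38.4 CPM in lung and 68.8 and 70.7 CPM in MLN. Epcam measured 3.30 and 4.30 CPM in lung and 7.27 and 5.16 CPM in MLN, while Sftpc and Krt8 were at 0 in every sample. Libraries shared at most 1.61% of the barcodes of the smaller one.

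A promoter window is given first for each of 4 members. They are Nfkbia, Tnfaip3 and Nfkbid, which differed most between lung and MLN, and Tnip1. The last was slightly lower in lung and missed the threshold (adjusted p = 0.136 by edgeR). RefSeq windows of build GRCm38.p6, from 250 bases before to 50 after a start, were found for 7 of the 10 members. The κB consensus, searched on both strands by its name with 10 letters, was in at least 1 window of each of the 7 and in 9 of their 12 windows, 2 overlapping windows of Nfkb2 sharing a match, compared with 8.46% of 32851 mouse promoter windows of the same length. Capitals mark the letters of a κB match, and all sequences run 5′ to 3′ on the strand of the gene.
Nfkbia, chr12:55492598-55492897, minus strand: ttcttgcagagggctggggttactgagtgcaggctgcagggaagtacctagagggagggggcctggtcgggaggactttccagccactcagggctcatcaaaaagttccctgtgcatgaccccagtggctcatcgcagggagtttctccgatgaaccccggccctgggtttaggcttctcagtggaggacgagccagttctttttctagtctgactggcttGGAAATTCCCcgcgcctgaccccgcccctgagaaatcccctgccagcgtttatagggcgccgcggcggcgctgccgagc
Tnfaip3, chr10:19015361-19015660, minus strand: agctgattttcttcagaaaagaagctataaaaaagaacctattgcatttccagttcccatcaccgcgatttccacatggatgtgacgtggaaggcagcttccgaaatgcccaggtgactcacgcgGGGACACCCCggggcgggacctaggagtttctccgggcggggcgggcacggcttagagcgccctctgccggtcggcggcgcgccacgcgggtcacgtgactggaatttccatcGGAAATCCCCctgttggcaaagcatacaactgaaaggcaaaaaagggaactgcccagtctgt
Nfkbid, chr7:30422156-30422455, plus strand: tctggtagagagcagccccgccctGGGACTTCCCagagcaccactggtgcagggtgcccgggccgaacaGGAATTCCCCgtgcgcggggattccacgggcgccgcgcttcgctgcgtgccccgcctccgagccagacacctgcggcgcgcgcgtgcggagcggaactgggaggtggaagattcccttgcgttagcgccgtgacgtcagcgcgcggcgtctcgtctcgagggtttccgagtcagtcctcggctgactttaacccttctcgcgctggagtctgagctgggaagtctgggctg
Tnip1, chr11:54962891-54963190, minus strand: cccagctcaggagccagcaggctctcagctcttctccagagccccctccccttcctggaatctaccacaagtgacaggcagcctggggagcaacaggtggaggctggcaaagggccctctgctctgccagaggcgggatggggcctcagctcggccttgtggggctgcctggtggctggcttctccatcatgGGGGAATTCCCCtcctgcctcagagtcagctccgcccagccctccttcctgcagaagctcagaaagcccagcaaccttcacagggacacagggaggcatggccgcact
The match of Nfkbia begins 29 bases before the start. In the windows shown, Tnfaip3 has matches 125 and 12 bases before it and Nfkbid 226 and 181 bases before it. No match lay in the other window of Tnfaip3 (chr10:19011914-19012213). The other windows of Nfkbid (chr7:30421481-30421780, which holds the first base of the gene, and chr7:30423025-30423324) had none either. In Tnip1, 3 overlapping matches begin 58, 57 and 56 bases before the start. A match describes letters only and says nothing about binding in these cells.

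The genes Tnfaip3, Nfkbia, Nfkbid and Nfkbiz were far higher in lung than in MLN. Tnfaip3 (ENSMUSG00000019850, chr10:19000910-19015410) encodes a ubiquitin-editing enzyme that shuts down NF-κB signals. It measured 741 CPM in lung 1 and 726 CPM in lung 2, but 35.6 CPM in MLN 1 and 25.4 CPM in MLN 2. Its level was 25.7-fold higher in lung, with a log2 fold change of 4.68 ± 0.18 (SE, 2 samples per organ, edgeR quasi-likelihood test, adjusted p = 4.36e-07). In the second experiment the gene lay between 17.0 and 24.96 CPM in all 8 lymph node samples, which overlap with each other whatever the organ or gate.

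Nfkbia (ENSMUSG00000021025, chr12:55489409-55492647) encodes IκBα, the classical inhibitor that is degraded upon activation and rapidly made again. Its level was 2146 CPM in lung 1 and 1583 CPM in lung 2 against 215 and 224 CPM in MLN. The log2 fold change was 3.23 ± 0.20 (9.41-fold, adjusted p = 3.85e-06 by edgeR). The node samples of the second experiment ranged from 167 to 217 CPM, next to the MLN samples of the first.

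Nfkbid (ENSMUSG00000036931, chr7:30421731-30428749) and Nfkbiz (ENSMUSG00000035356, chr16:55811375-55838954) encode the nuclear IκB proteins IκBNS and IκBζ, which act on NF-κB at its target genes. Nfkbid measured 471 and 390.0 CPM in lung and 53.1 and 66.2 CPM in MLN, a log2 fold change of 3.01 ± 0.17 (8.06-fold, adjusted p = 2.70e-06 by edgeR). Nfkbiz measured 373 and 246 CPM in lung and 55.7 and 52.1 CPM in MLN, a log2 fold change of 2.68 ± 0.22 (6.39-fold, adjusted p = 2.11e-05 by edgeR). For each of these 4 genes both lung samples stood far above both MLN samples, although lung 1 and lung 2 were well apart from one another for Nfkbia and Nfkbiz.

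**Figure D1:**
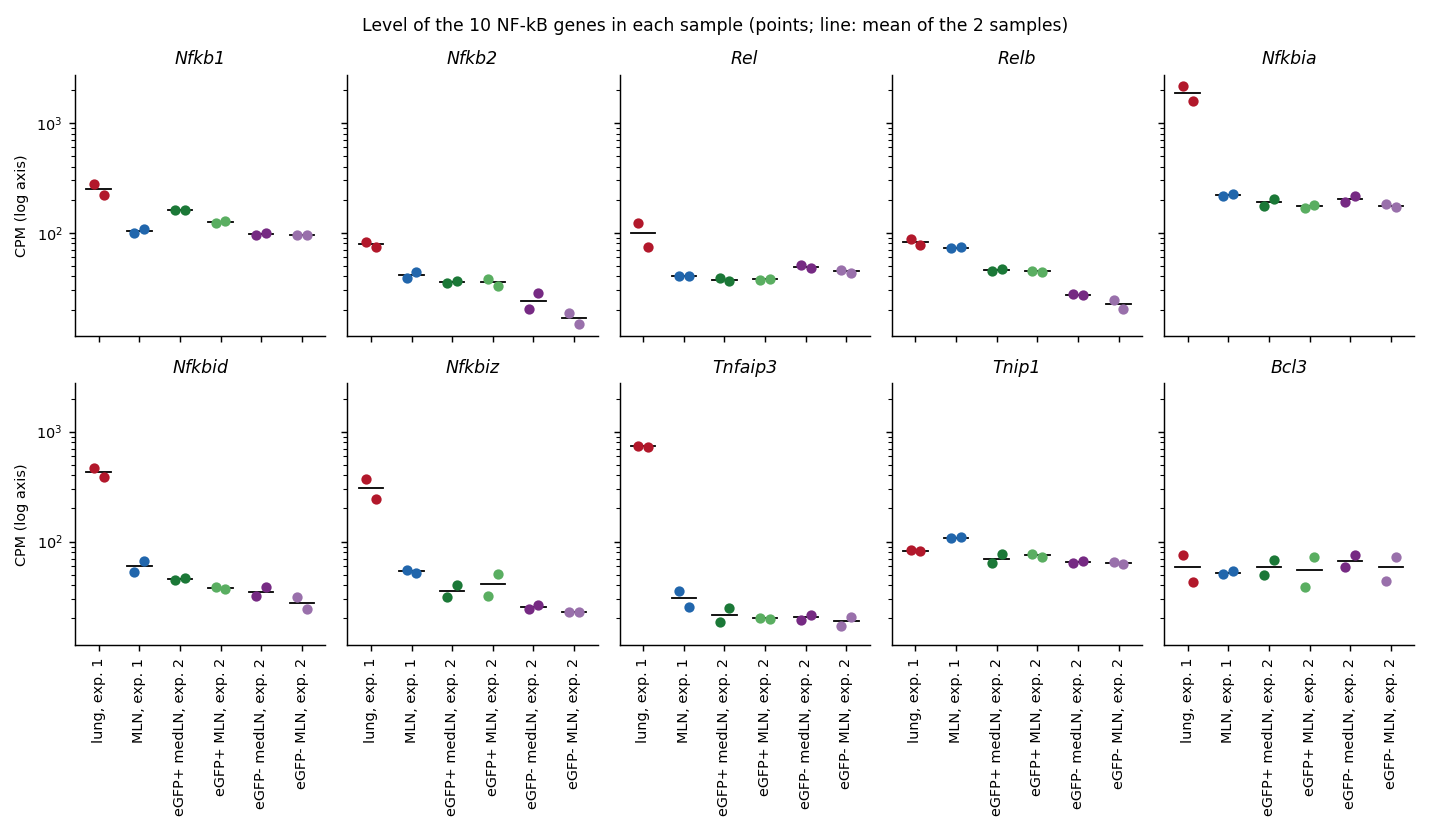
Level of each of the 10 genes (CPM, log axis) in the 12 samples, 2 points per organ and gate with a line at their mean. Tnfaip3, Nfkbia, Nfkbid and Nfkbiz stand far above all lymph node samples in the 2 lung samples (Tnfaip3 at 741 and 726 CPM), whereas Tnip1 and Bcl3 lie within 38.6 to 109 CPM throughout.

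Of the subunits, Nfkb1, Rel and Nfkb2 were higher in lung and Relb was not called. Nfkb1 (ENSMUSG00000028163, chr3:135584655-135691969), the precursor of the DNA-binding partner in the canonical dimers, measured 279 and 219 CPM in lung and 98.9 and 109 CPM in MLN (log2 fold change 1.42 ± 0.16, adjusted p = 1.83e-04 by edgeR). Rel (ENSMUSG00000020275, chr11:23736847-23770969), the c-Rel subunit that serves activated lymphocytes, measured 123 CPM in lung 1 and 73.5 CPM in lung 2, compared with 40.4 CPM in both MLN samples. Its log2 fold change was 1.47 ± 0.23 (adjusted p = 1.40e-03 by edgeR), which fell to 0.92 without lung 1 and stayed called.

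Nfkb2 (ENSMUSG00000025225, chr19:46300994-46312400) encodes the precursor that is processed in the noncanonical pathway. It measured 83.1 and 73.8 CPM in lung and 38.7 and 44.0 CPM in MLN, with a log2 fold change of 1.09 ± 0.14 (adjusted p = 3.98e-04 by edgeR). Relb (ENSMUSG00000002983, chr7:19606217-19629438), its usual partner, measured 87.2 and 76.7 CPM in lung and 71.9 and 73.9 CPM in MLN. Its lung samples lay just above its MLN samples (log2 fold change 0.33 ± 0.13, 95% interval 0.07 to 0.58, adjusted p = 0.0880 by edgeR), and with the mouse as a block the adjusted p was 0.0451 at 0.32.

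Tnip1 (ENSMUSG00000020400, chr11:54910787-54962956), which encodes a partner of the Tnfaip3 product, was the only member with a lower level in both lung samples. It measured 83.4 and 81.4 CPM in lung and 107 and 109 CPM in MLN. Its log2 fold change was -0.24 ± 0.11 and not called (adjusted p = 0.136 by edgeR), but it was called at -0.38 when library totals replaced the TMM factors (adjusted p = 0.0229), a scaling that moves the median of all genes to -0.15 and the genes called from 1803 higher and 1481 lower to 1309 higher and 2050 lower. Bcl3 (ENSMUSG00000053175, chr7:19808462-19822824), an IκB protein that can also coactivate, measured 74.7 CPM in lung 1 but 43.0 CPM in lung 2, on either side of 50.7 and 53.9 CPM in MLN (log2 fold change 0.39 ± 0.23, adjusted p = 0.239 by edgeR, and -0.22 without lung 1). Without lung 2, both Relb (0.47, adjusted p = 0.00866) and Bcl3 (0.73, adjusted p = 6.03e-04) were called.

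In total 7 of 10 members were higher in lung and 0 were lower at an adjusted p under 0.05, compared with 17.0% of the 10588 genes tested that were higher. The median log2 fold change was 1.45 over the members and -0.01 over all genes. Genes of the early response to stimulation and to tissue dissociation moved with them: 15 of 16 such genes were higher in lung and 1 lower (median 2.69), their summed level being 10640 and 10178 CPM in lung and 1467 and 1131 CPM in MLN. In a repeat without cells that held a Fos, Fosb, Egr1, Atf3 or Hspa1a UMI, which left 155 and 37 lung cells and 1519 and 568 MLN cells, the 7 calls remained, with Tnfaip3 at 4.35, Nfkbid at 3.12, Nfkbia at 2.82 and Nfkbiz at 2.35. Bcl3 was called there as well (0.80, adjusted p = 0.0373 by edgeR). Cells with UMIs of only the other early response genes, such as Nr4a1, were kept, and an effect of the preparation was not tested. Without cells holding a UMI of a B cell, myeloid, neutrophil, epithelial, endothelial or erythroid marker, which left 519 and 186 lung cells and 660 and 188 MLN cells, Nfkb2 dropped to 0.45 and lost its call (adjusted p = 0.107), while the other 6 kept theirs. Relb was at -0.24 there, without a call. These markers include Ighm and Pecam1, which gave most of the B cell and of the epithelial and endothelial marker levels. The cells dropped are therefore not shown to be of other types, and depth was not matched in this repeat.

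**Figure D2:**
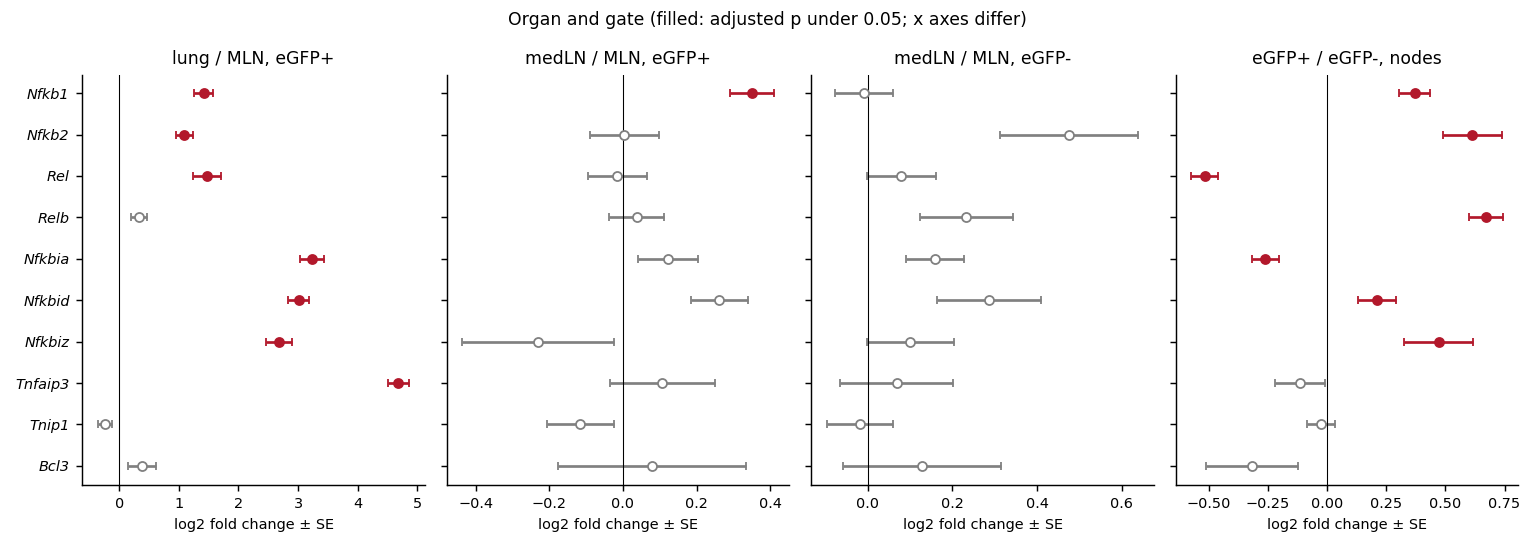
Log2 fold change (x axis, ± SE) of each gene between organs and between gates, filled where the adjusted p is under 0.05, with a separate x scale for each panel. Between lung and MLN Tnfaip3 reaches 4.68, whereas between medLN and MLN only Nfkb1 in IL-4eGFP+ cells is filled, at 0.35.

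Among other genes of the pathway between lung and MLN, of 21 upstream genes, 8 were higher and 1 was lower (median 0.29), among them Malt1, the protease of T cell receptor signals to NF-κB, at 0.95 ± 0.12, Ikbkb, a kinase of IκB, at 0.89 ± 0.11, Birc2 at 0.88 ± 0.14 and, lower, the adaptor Traf5 at -1.11 ± 0.12. Other restraint genes gave 5 higher and 2 lower of 12 tested (median 0.00), led by the RNase gene Zc3h12a at 2.81 ± 0.20. Of the 3 genes of linear ubiquitin chains none passed (median -0.24). Receptors that signal to NF-κB gave 8 higher and 3 lower of 14. This list, called receptors below, also holds the ligand gene Cd40lg and the adaptor gene Myd88. Among those called were Il1rl1, the IL-33 receptor, at 5.03 ± 0.33, Tnfrsf1b at 2.11 ± 0.16, Tnfrsf4 (OX40) at 1.95 ± 0.17 and, lower, Cd27 at -1.78 ± 0.14. Known NF-κB target genes gave 13 higher and 2 lower of 23 (median 1.33), with Gadd45b at 4.82 ± 0.28, Il2ra at 2.79 ± 0.23 and Traf1 at 1.75 ± 0.14. Ccl3 was also called, with a mean of 17.8 CPM in lung and 0 CPM in MLN.

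The share of cells with a UMI went the same way. With every cell thinned to 2000 UMIs, Tnfaip3 was found in 68.7% and 67.2% of lung cells and in 6.59% and 4.85% of MLN cells, and Nfkbia in 86.0% and 76.5% of lung cells and in 28.1% and 27.7% of MLN cells. Nfkbid was found in 51.7% and 48.8% against 7.80% and 9.15%. For Tnip1 the shares were 15.4% in both lung samples and 19.4% and 18.2% in MLN. Without thinning, Tnfaip3 was found in 92.4% and 88.0% of lung cells and in 15.7% and 12.3% of MLN cells. After thinning to 2000 UMIs, a cell held UMIs of 3.65 members on average in lung 1 and of 3.20 in lung 2. The means in MLN were 1.25 and 1.24. At that depth 1.97% and 3.68% of lung cells held none of the 10, compared with 30.7% and 30.6% of MLN cells. Thinning left out 14 and 8 lung cells and 51 and 11 MLN cells. The samples hold no cell type known to lack these genes, so no background share from free RNA can be set beside these values, and their intervals cover counting error only.

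**Figure D3:**
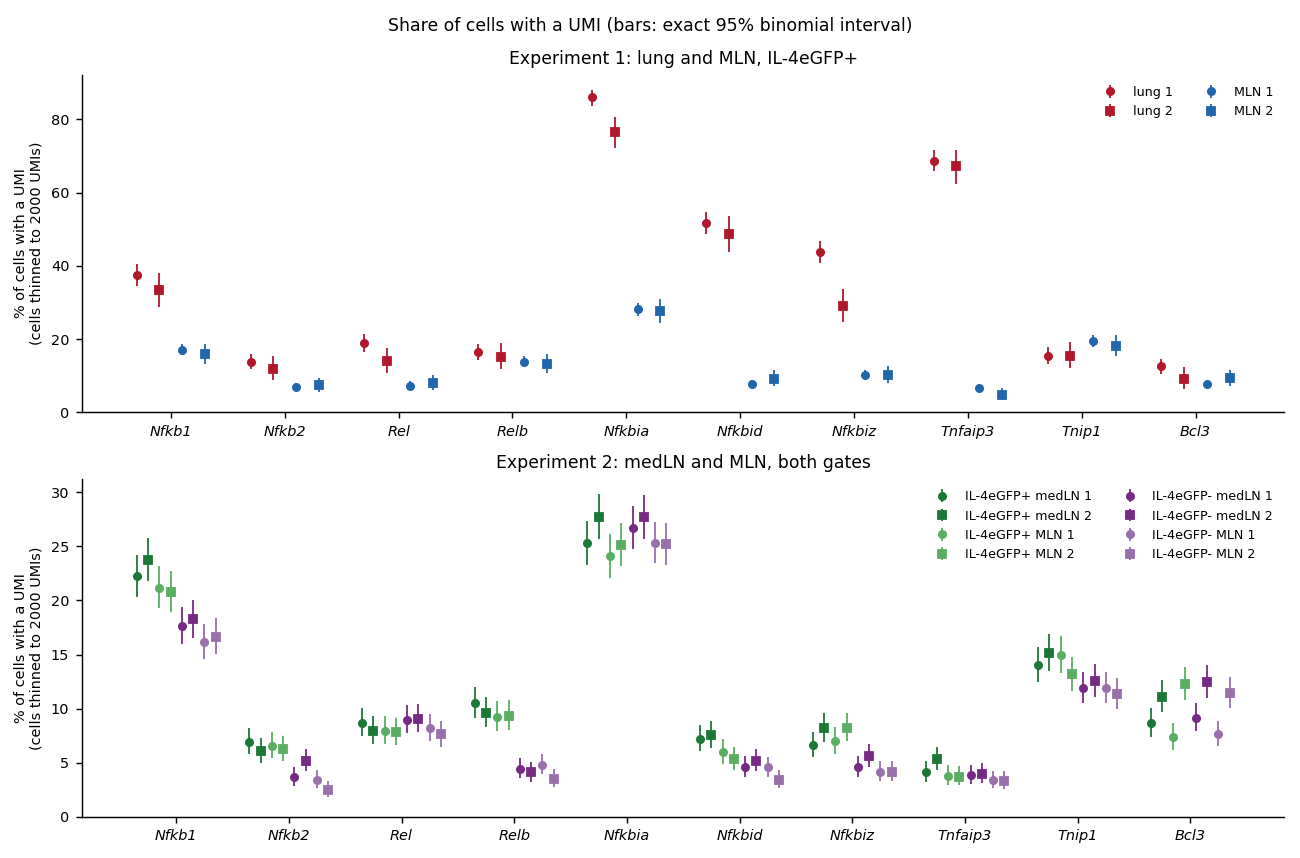
Percent of cells with at least 1 UMI of each gene after thinning to 2000 UMIs (y axis), with exact 95% binomial intervals, for the 4 samples of the first experiment (top) and the 8 of the second (bottom). Tnfaip3 is found in 68.7% and 67.2% of lung cells but in at most 6.59% of the cells of any lymph node sample.

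Between the draining nodes of lung and gut, few members differed. In IL-4eGFP+ cells Nfkb1 measured 162 and 161 CPM in medLN and 124 and 128 CPM in MLN, with narrow pairs that did not overlap. Its log2 fold change of 0.35 ± 0.06 was called (adjusted p = 0.0335 by edgeR), the only 1 of 10 members, compared with 0.675% of 11263 genes that were higher. This call was lost when any 1 of the 4 samples was left out (adjusted p 0.0615 to 0.296, log2 fold change 0.32 to 0.38) and without the filter on low counts (adjusted p = 0.117). The other 9 had log2 fold changes from -0.23 for Nfkbiz to 0.26 for Nfkbid. For Tnfaip3 (0.11 ± 0.14), which separated lung from MLN most, the 95% interval between medLN and MLN was -0.17 to 0.39.

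Among IL-4eGFP- cells, 0 of 10 members were called between medLN and MLN by edgeR and 0 by DESeq2, compared with 0.178% of 10684 genes called in either direction. At an unadjusted p under 0.05 there were 3 of the 10 members and 666 of the 10684 genes. Nfkb2 was farthest apart, at 20.1 and 28.1 CPM in medLN and 18.6 and 14.6 CPM in MLN (log2 fold change 0.48 ± 0.16, adjusted p = 0.586). Leaving out medLN 1 or MLN 1 brought Nfkb2 (0.70 and 0.65) and Nfkbid (0.41 and 0.47) past the threshold, and leaving out MLN 2 brought Bcl3 past it (0.55). Bcl3 was higher in mouse 2 than in mouse 1 in both organs and gates. Mouse 1 measured 49.7 and 38.6 CPM in IL-4eGFP+ and 58.3 and 44.0 CPM in IL-4eGFP- cells, and mouse 2 measured 68.4, 71.7, 74.7 and 72.9 CPM. The difference between the gates in the organ effect was called for 0 members by edgeR and 0 by DESeq2, beside 0.156% of 11535 genes. Unadjusted p was under 0.05 for 1 of the 10 members and 807 of the 11535 genes. Nfkb1 had the smallest p (0.37 ± 0.08, adjusted p = 0.180 by edgeR). The largest difference was that of Nfkb2, in the other direction (-0.47 ± 0.22, adjusted p = 0.731 by edgeR).

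Few other genes of the pathway differed between medLN and MLN. Among IL-4eGFP+ cells 1 of 21 upstream genes (Malt1, 0.34 ± 0.06) and 2 of 19 known targets (Ier3, 1.76 ± 0.20, and Irf4, 0.81 ± 0.13) were higher in medLN, and 1 of 14 receptors (Cd27, -0.37 ± 0.06) was lower. Among IL-4eGFP- cells 1 of 13 receptors (Tnfrsf4, 1.02 ± 0.10) and 1 of 18 known targets (Cd83, 0.78 ± 0.12) were higher. None of the remaining genes of these lists, nor any restraint, linear ubiquitin or early response gene, was called by edgeR in either gate. The organ effect differed between the gates for Tnfrsf4 (-0.91 ± 0.13) and for the survival gene Bcl2a1b (-0.57 ± 0.08), both with a smaller medLN value relative to MLN in IL-4eGFP+ than in IL-4eGFP- cells.

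Between the gates the subunits parted. Relb and Nfkb2, the noncanonical pair, were higher in IL-4eGFP+ cells, and Rel was lower. Relb measured 45.1 and 47.2 CPM in medLN and 44.8 and 44.4 CPM in MLN among IL-4eGFP+ cells, compared with 27.5, 27.3, 24.6 and 20.2 CPM in the IL-4eGFP- samples of the same order (log2 fold change 0.67 ± 0.07, adjusted p = 5.03e-06 by edgeR). Nfkb2 measured 34.6, 36.5, 38.0 and 32.6 CPM against 20.1, 28.1, 18.6 and 14.6 CPM (0.61 ± 0.12, adjusted p = 1.01e-03 by edgeR), and here too the gates did not overlap.

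Rel measured 38.4, 36.6, 37.4 and 37.9 CPM in IL-4eGFP+ samples and 50.6, 47.7, 46.2 and 43.4 CPM in IL-4eGFP- samples (log2 fold change -0.52 ± 0.06, adjusted p = 5.33e-06 by edgeR), with all 4 IL-4eGFP+ values below the lowest IL-4eGFP- value. Nfkb1 was higher in IL-4eGFP+ cells, at 162, 161, 124 and 128 CPM against 95.5, 100.0, 94.9 and 94.4 CPM (0.37 ± 0.07, adjusted p = 3.40e-04 by edgeR). The nuclear IκB genes Nfkbiz (0.47 ± 0.14, adjusted p = 0.0133 by edgeR) and Nfkbid (0.21 ± 0.08, adjusted p = 0.0376) were higher as well. Nfkbia was lower at -0.26 ± 0.06 (adjusted p = 1.58e-03 by edgeR), although its CPM overlapped between gates (175, 205, 167 and 180 against 192, 217, 182 and 171). Nfkbid lost its call without any 1 IL-4eGFP+ sample, without IL-4eGFP- medLN 1, and without IL-4eGFP- MLN 2 (adjusted p up to 0.113).

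These 5 higher and 2 lower of 10 stand beside 31.3% of 11279 genes that were higher and 31.5% that were lower, a share of members near that of all genes. Tnfaip3 (-0.12 ± 0.10), Tnip1 (-0.03 ± 0.06) and Bcl3 (-0.32 ± 0.19) were not called, but Bcl3 was called with the hashtag sample as a block (adjusted p = 1.20e-04, 8 members in all). With 1 sample left out, Bcl3 ranged from -0.16 to -0.53 and was called only without IL-4eGFP+ MLN 2 (adjusted p = 0.0295). With library totals in place of TMM the median of all genes moved to 0.18 and the genes called from 3529 higher and 3557 lower to 5267 and 2041. On that scale Nfkbia was at -0.06 and not called and Rel at -0.32 and called, both below the median of all genes as before, and Tnip1 at 0.17 lay next to that median, as it did with TMM (-0.03 beside -0.02).

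The IL-4eGFP- gate holds several kinds of CD4+ T cell, and the values depended on which of them were used. Foxp3, the factor of regulatory T cells, measured 48.9 to 76.3 CPM there and 4.22 to 11.5 CPM in IL-4eGFP+ samples. Without the IL-4eGFP- cells that held a Foxp3 UMI, Relb was at 0.88 and Nfkb2 at 0.83, and Nfkbia lost its call at -0.11 (adjusted p = 0.103). Myeloid markers summed to 36.1 to 133 CPM in IL-4eGFP+ and 11.4 to 32.3 CPM in IL-4eGFP- samples, and their part in these values was not tested.

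Of the other genes of the pathway, 3 of 21 upstream genes were higher and 9 lower, led by Malt1 (1.34 ± 0.06) and Ikbkb (-0.67 ± 0.05), and restraint genes gave 5 higher and 6 lower of 13, led by N4bp1 (-1.46 ± 0.08). Linear ubiquitin genes gave 0 higher and 2 lower of 3, with Sharpin at -0.26 ± 0.05 and Rnf31 at -0.44 ± 0.09, and known targets 6 higher and 8 lower of 19, with Bcl2a1d at 2.96 ± 0.07 and Myc at -1.74 ± 0.07. The receptor list gave 7 higher and 5 lower of 14, with Tnfrsf1a at -1.46 ± 0.09 and the ligand gene Cd40lg at 0.84 ± 0.06. Of 13 early response genes 3 were higher and 7 lower, with Zfp36 at -0.83 ± 0.04.

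Within the IL-4eGFP- gate, cells with a Foxp3 UMI carried more transcripts of both noncanonical subunits and of Nfkbia. There were 220 and 257 such cells in medLN and 189 and 232 in MLN. Nfkb2 measured 43.7 and 60.0 CPM in Foxp3-positive cells of medLN and 45.9 and 24.7 CPM in those of MLN, compared with 16.8, 23.0, 16.1 and 13.5 CPM in cells without a Foxp3 UMI (log2 fold change 1.15 ± 0.15, 4 samples as blocks, adjusted p = 2.20e-05 by edgeR). Relb measured 57.5, 63.9, 47.4 and 35.8 CPM with and 23.3, 21.4, 22.5 and 18.4 CPM without (1.10 ± 0.14, adjusted p = 1.75e-05 by edgeR).

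Nfkbia measured 329, 417, 330.5 and 317 CPM with and 172, 185, 168 and 154 CPM without a Foxp3 UMI (0.88 ± 0.07, adjusted p = 1.75e-07 by edgeR), and in every sample the Foxp3-positive cells were higher. Bcl3 (0.53 ± 0.13, adjusted p = 4.75e-03), Tnip1 (0.51 ± 0.10, adjusted p = 1.19e-03) and Nfkb1 (0.37 ± 0.09, adjusted p = 5.51e-03) were also higher. These 6 of 10 compare with 14.2% of 10465 genes that were higher, and the members' median was 0.52 beside -0.01 over all genes. Nfkbiz (0.55, adjusted p = 0.0603), Nfkbid (0.41, adjusted p = 0.0501), Tnfaip3 (0.34, adjusted p = 0.207) and Rel (0.21, adjusted p = 0.223) were not called. Bcl3 missed the threshold without medLN 1 (adjusted p = 0.0532). With library totals the median of all genes moved to 0.15, the calls went from 1491 higher and 1164 lower to 2262 and 669, and 9 members were called.

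In the same Foxp3-positive cells 6 of 13 receptors were higher and 2 lower, led by Tnfrsf4 at 3.58 ± 0.08, Tnfrsf18 (GITR) at 1.85 ± 0.08, Tnfrsf1b at 2.56 ± 0.12 and Tnfrsf9 at 2.35 ± 0.14. Known targets gave 11 higher and 2 lower of 17 (median 0.81), with Il2ra at 3.78 ± 0.09 and Cd83 at 2.64 ± 0.17. Upstream genes gave 1 higher (Nfkbie, another IκB, at 0.62 ± 0.16) and 3 lower of 21, and restraint genes 4 higher of 13, led by Tax1bp1 (0.39 ± 0.08) and Zc3h12a (0.74 ± 0.18), with none of the 3 linear ubiquitin genes called. Early response genes, 4 of 13 higher and 3 lower, included Jun at 1.79 ± 0.20. Median depth was 2768 to 3158 UMIs in cells with and 3320 to 3410 in cells without a Foxp3 UMI, so the higher levels went with the shallower cells.

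**Figure D4:**
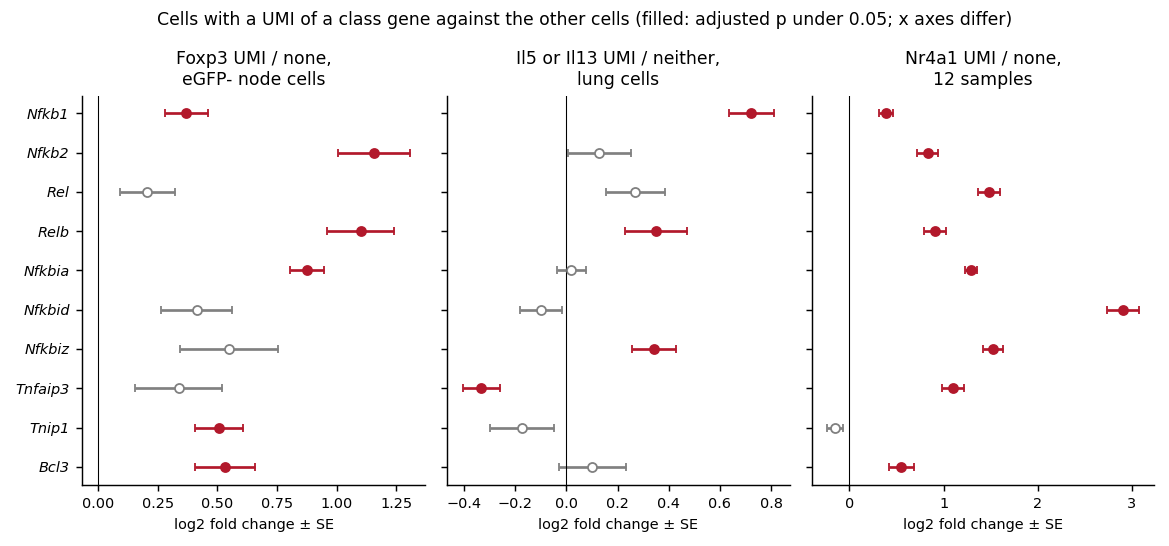
Log2 fold change (x axis, ± SE) of each gene between cells with and without a UMI of Foxp3 (left), of Il5 or Il13 (middle) and of Nr4a1 (right), filled where the adjusted p is under 0.05, with separate x scales. Nfkb2 and Relb lead on the left at 1.15 and 1.10, Nfkb1 in the middle at 0.72 and Nfkbid on the right at 2.90.

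Among lung cells, those with a UMI of the effector cytokines Il5 or Il13 had more Nfkb1 and less Tnfaip3. There were 351 and 88 cells with and 731 and 328 without. Nfkb1 measured 353 and 356 CPM with and 239 and 173 CPM without (log2 fold change 0.72 ± 0.09, 2 samples as blocks, adjusted p = 5.70e-14 by edgeR). Tnfaip3 measured 669 and 574 CPM with and 780.2 and 778 CPM without (-0.33 ± 0.07, adjusted p = 1.40e-04 by edgeR), a call that held in 3 of 6 alternatives. This inhibitor was high in both kinds of lung cell but lower in the cytokine-positive one.

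Nfkbiz was higher at 412 and 327 CPM against 351 and 218 CPM (0.34 ± 0.09, adjusted p = 1.43e-03 by edgeR), and Relb at 98.7 and 101 CPM against 80.9 and 68.6 CPM (0.35 ± 0.12, adjusted p = 0.0429 by edgeR), a call that held in only 1 of 6 alternatives. These 3 higher and 1 lower of 10 compare with 4.63% of 9305 genes higher and 4.94% lower. Nfkbia was at 0.02 ± 0.06 with a 95% interval of -0.09 to 0.13. DESeq2 called Nfkb1 alone (0.77, adjusted p = 4.23e-03), the fit without the library as a block called 0 members, and in cells thinned to 2000 UMIs Nfkb1 and Nfkbiz were called. The classes were set anew on the thinned counts, which left 218 and 50 cytokine-positive cells. Cells that lost their Il5 or Il13 UMIs were counted with the others, so depth was not the only change. The median depth of the cytokine-positive cells was 7530 and 6530 UMIs and that of the others 6661 and 5605. 

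The few lymph node cells of this kind are given with no test. Nfkb1 measured 417 CPM in the 60 such cells of IL-4eGFP+ medLN 1, 389 CPM in the 54 of medLN 2 and 212 CPM in the 73 of MLN 2, compared with 142, 147 and 120.0 CPM in the remaining cells. Relb went the other way there, at 29.3, 27.3 and 22.8 CPM against 46.3, 48.4 and 46.3 CPM, and Tnfaip3 had only 2, 4 and 10 UMIs. In lung, 6 of 23 known targets were higher and 2 lower in the cytokine-positive cells. Among them were the chemokine gene Cxcl2 at 1.78 ± 0.11, Il2ra at 1.33 ± 0.12, Ier3 at 1.18 ± 0.14 and, lower, Ccl4 at -1.79 ± 0.25. The plain mean of Ccl4 was 19.2 CPM in cytokine-positive and 26.8 CPM in other lung cells, a smaller step than the fitted one. Of 21 upstream genes 1 was higher and 3 were lower, led by Malt1 at -0.94 ± 0.10. Of 14 receptors 2 were higher, Tnfrsf9 at 0.75 ± 0.14 and Il1rl1 at 0.40 ± 0.08. The 2 lower ones were Cd27 at -0.95 ± 0.13 and Cd28 at -0.56 ± 0.08. Of 16 early response genes 3 were higher and 5 lower, with Egr1 at 0.86 ± 0.10 and Zfp36 at -0.49 ± 0.07. No restraint or linear ubiquitin gene was called by edgeR.

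Nr4a1 encodes a nuclear receptor that is switched on quickly after a T cell receptor signal. A Nr4a1 UMI was found in 930 of 1082 and 315 of 416 lung cells, in 117 of 2462 and 39 of 754 MLN cells, and in 62 to 96 cells of each lymph node sample of the second experiment. Nfkbid had the largest fold change with it. In lung it measured 505 and 441 CPM with and 202 and 179 CPM without a Nr4a1 UMI, and in IL-4eGFP+ node samples 357, 272, 316 and 262 CPM with and 31.4, 32.3, 29.3 and 25.3 CPM without. In IL-4eGFP- node samples it was 217, 336, 235 and 200.5 CPM with and 23.0, 23.7, 20.8 and 16.1 CPM without. Over the 12 samples as blocks the log2 fold change of Nfkbid was 2.90 ± 0.17 (7.48-fold, adjusted p = 1.24e-12 by edgeR), with a higher level in the positive cells of all 11 samples that had at least 50 of them.

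**Figure D5:**
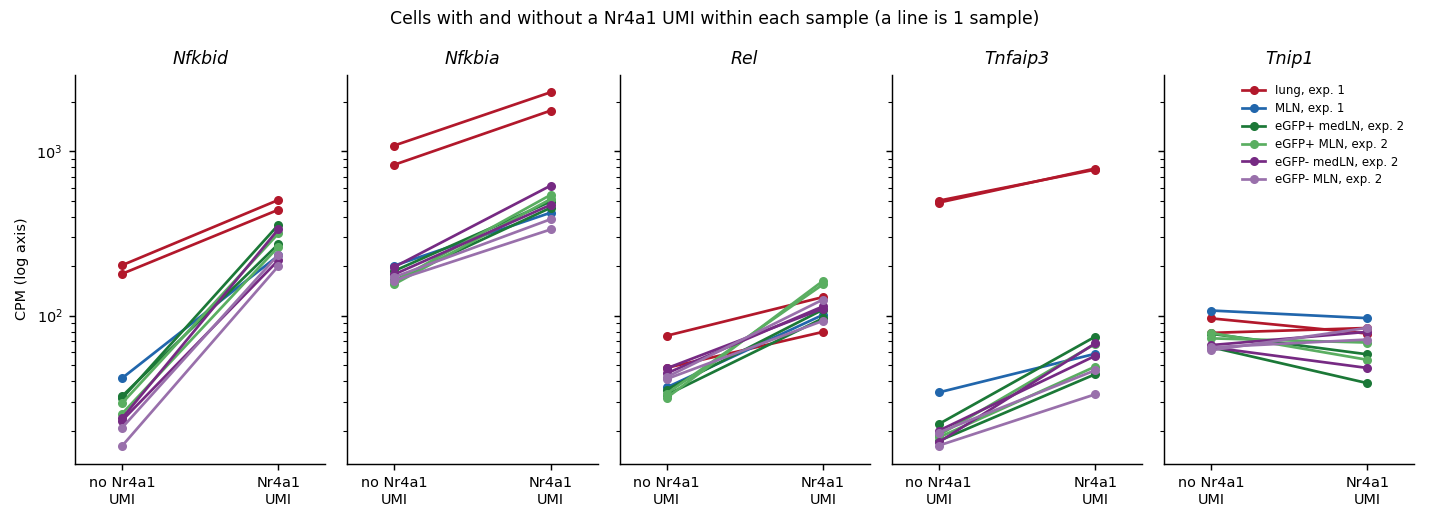
CPM (log axis) in cells without and with a Nr4a1 UMI for 5 of the genes, a line for each of the 11 samples with at least 50 positive cells, colored by organ and gate. All lines rise for Nfkbid, Nfkbia, Rel and Tnfaip3 but not for Tnip1, and the lung lines of Nfkbia and Tnfaip3 run above all others on both sides (Tnfaip3 at 499.8 and 487 CPM in lung cells without a Nr4a1 UMI).

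The subunit Rel went with Nr4a1 too, at 129.6 and 79.6 CPM with and 75.4 and 48.1 CPM without in lung, and at 93.0 to 163 CPM with and 31.5 to 47.7 CPM without in the 8 node samples (1.48 ± 0.12, adjusted p = 2.86e-10 by edgeR). Nfkbiz (1.52 ± 0.11), Nfkbia (1.29 ± 0.06), Tnfaip3 (1.10 ± 0.11), Relb (0.91 ± 0.12), Nfkb2 (0.83 ± 0.11), Bcl3 (0.55 ± 0.13) and Nfkb1 (0.39 ± 0.07) were higher as well, and Tnip1 (-0.15 ± 0.08, adjusted p = 0.258) was not called. Thus 9 of 10 members were higher, compared with 7.74% of 9933 genes, and their median was 1.00 beside -0.04 over all genes. Each experiment on its own gave different numbers of calls: 9 members in medLN and MLN, and 6 in lung and MLN, where Nfkb1 (0.30), Nfkb2 (0.50) and Bcl3 (0.02) were not called. Positive cells were deeper (median 3577 to 7204 UMIs against 3149 to 5696), and in cells thinned to 2000 UMIs Nfkb1 was not called (0.30, adjusted p = 0.122). Here too the classes were set anew on the thinned counts, with 715 positive cells left in lung 1 and 245 in lung 2.

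In lung cells without a Nr4a1 UMI, Nfkbia measured 1082 and 827 CPM and Tnfaip3 499.8 and 487 CPM, while in MLN 1 cells with one they measured 423 and 58.6 CPM, a set of values given with no test. Nfkbid in node cells with a Nr4a1 UMI (200.5 to 357 CPM) overlapped with its level in lung cells without one (202 and 179 CPM). Known targets went the same way as the members, with 20 of 23 higher and 0 lower (median 1.31), led by Tnf at 2.77 ± 0.21 and Gadd45b at 1.52 ± 0.12. The receptor list gave 5 of 14 higher, with the ligand gene Cd40lg at 1.00 ± 0.08 and the receptor gene Tnfrsf9 at 1.94 ± 0.17. Upstream genes gave 4 higher and 1 lower of 21, led by Malt1 at 0.37 ± 0.06, and restraint genes 1 higher (Zc3h12a, 1.10 ± 0.14) and 1 lower (Cyld, a deubiquitinase, -0.26 ± 0.07) of 11, with no linear ubiquitin gene called. Early response genes, the list from which Nr4a1 was taken, gave 11 higher and 1 lower of 15, with Egr2 at 3.86 ± 0.16.

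Some other kinds of cell are described by values alone. In dividing cells, marked by a Mki67 UMI, Relb was lower in each of the 8 IL-4eGFP+ samples with at least 50 such cells, for example 23.7 against 58.4 CPM in IL-4eGFP+ medLN 1 and 46.2 against 76.7 CPM in MLN 1. Rel was also lower in the 4 IL-4eGFP+ node samples, at 18.7 to 24.1 CPM in dividing and 43.9 to 50.7 CPM in other cells. Cells with Cxcr5, the chemokine receptor of follicular helper cells, held more Nfkbid in all 7 samples with at least 50 of them, such as 79.2 against 38.6 CPM in IL-4eGFP+ medLN 2 and 63.3 against 45.7 CPM in MLN 1. Depth was not matched in these values.

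Taking the 6 conditions in order, Nfkbia, Tnfaip3, Nfkbid, Nfkbiz, Nfkb1, Nfkb2, Rel and Relb each had their highest mean in lung, and Tnip1 in the MLN of the first experiment. Below lung, Tnfaip3 had means from 30.5 CPM in that MLN to 18.8 CPM in IL-4eGFP- MLN, with overlapping samples in each neighboring pair of the 4 node conditions of the second experiment. Relb went from 82.0 ± 7.43 CPM in lung (SD, 2 samples) to 72.9 ± 1.42 CPM in MLN, 46.1 ± 1.47 CPM in IL-4eGFP+ medLN, 44.6 ± 0.342 CPM in IL-4eGFP+ MLN, 27.4 ± 0.175 CPM in IL-4eGFP- medLN and 22.4 ± 3.10 CPM in IL-4eGFP- MLN. The experiments differed in animals, their age, depth, hashtag staining, Cell Ranger version, genes in the matrix and the T cell receptor filter. A step between the experiments cannot be told apart from these differences.

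Genes with the most similar pattern over the 12 samples were found by Pearson's r of log2(CPM + 1). Values were first centred on the mean of each experiment, and the result is a description. Lung against MLN carries most of the spread for members far higher in lung, such as Tnfaip3, but not for every member. Relb was closer between lung and MLN (means 82.0 and 72.9 CPM) than between the gates (46.1 and 44.6 against 27.4 and 22.4 CPM). For Nfkbia the most similar genes were Nabp1 (0.996), Per1 (0.994) and Dusp5 (0.993), for Tnfaip3 Slc7a5 (0.991) and Dusp5 (0.991), and for Nfkbiz Gadd45b (0.991). Nfkbia and Tnfaip3 were each the most similar member to the other (0.987). Relb was nearest to Endod1 (0.989) and Nfkb2 to Tnfrsf4 (0.964), the OX40 gene, while Rel was nearest to Kdm6b (0.978) and Nfkb1 to Rexo2 (0.985). Nfkbid was nearest to Mapkapk3 (0.987). Tnip1 was nearest to Bzw2 (0.964), with no member above 0.373, and Bcl3 to Stat3 (0.874), with a steep drop to the next gene, Ubqln1 (0.730).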

How the data were processed

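Per the methods section and file headers, the authors made the deposited UMI counts with Cell Ranger (2.1.1 and 3.0.1 for lung and MLN, 6.1.2 for medLN and MLN) on mm10, without normalization. Hashtag UMI counts were deposited with the node counts. Filters kept cells that had more than 500 genes, more than 500 UMIs, a novelty above 0.8 and less than 7% of UMIs from mitochondria, and in lung and MLN cells those with a productive TCRα and TCRβ contig. Hashtags were called per library with HTODemux (Seurat 5.3.0, quantile 0.99), leaving out doublets (1256 and 1280 cells) and negatives (52 and 70). The gate was read from the barcode suffix.

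UMIs were summed per sample, without 268 T cell receptor genes, and tested with edgeR 4.0.16 (R 4.3.3, filterByExpr, TMM, quasi-likelihood, SE from the log2 fold change and F) with Benjamini-Hochberg adjustment over all genes and a threshold of 0.05. DESeq2 1.42.0, other scalings, filters, cell choices and left-out samples were alternatives. On simulated data with 200 genes changed by a log2 of 2, the test recovered 173 to 197 per comparison with 5 to 19 false calls. The 19 false calls stood beside 190 recovered, between medLN and MLN in IL-4eGFP+ cells. Smaller changes were not simulated, so how many of those the test would miss is not known. Same-numbered samples come from 1 mouse, and their deviations correlated at 0.0377 (lung, MLN) and 0.117 to 0.235 (nodes). Replicates differed beyond sampling noise, and p-values rest on 2 mice per experiment. For Il5 or Il13 in lung, where 4 sums and 2 blocks leave 1 residual degree of freedom, they rest mainly on the spread shared across genes. The 95% intervals of log2 fold changes use a normal multiplier of the SE. They take no account of the few residual degrees of freedom and are therefore too narrow. Shares have exact Clopper-Pearson 95% intervals (scipy 1.17.1). The members and lists were chosen with earlier results of these data known. All members are named, and from each list up to 4 called genes with the smallest adjusted p. A comparison of the gates with a smaller choice of IL-4eGFP- cells is not reported here.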

Additional observations from a re-analysis of the deposited data

How the results depend on the processing

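Of 780 values of the members under the alternatives, 722 kept their side of the threshold, of which 26 changed sign with no call on either side, 35 lost a call, 22 gained one and 1 changed sign with a call. That 1 was Tnip1 between the gates, at 0.17 with library totals, which moved the median of all genes alike, from -0.02 to 0.18. The counts of members called stayed within 1.5 times the main count except as follows. Between medLN and MLN in IL-4eGFP+ cells the 1 call (Nfkb1) became 0 without the filter on low counts and ranged from 0 to 0 when a sample was left out, and in IL-4eGFP- cells the 0 calls ranged from 0 to 2. For Il5 or Il13 in lung the 4 calls became 1 with DESeq2, 0 without the replicate block and 2 after thinning. For Nr4a1 the 9 calls became 5 without the replicate block. The mouse or hashtag sample as a replicate block gave 8 calls between lung and MLN, 1 and 0 between the nodes and 8 between the gates, and changed no call other than those of Relb and Bcl3 given above. With 1 sample left out, calls ranged from 7 to 9 between lung and MLN, 6 to 7 between the gates and 6 to 7 for Foxp3, where a lone sample is assumed to vary like the other groups. With library totals the genes called went from 16 higher and 3 lower to 18 and 1 between the nodes in IL-4eGFP- cells, and from 8 and 10 to 8 and 17 for the difference between gates. The causes were not tested. Leaving out a lung sample for Il5 or Il13 left no residual degrees of freedom, and all 120 shares moved on thinning. Each experiment had 2 mice, and the smallest choice of cells left 37 in lung 2. The fits by experiment, without lung and with library totals were chosen after seeing the data.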
